A study of Homo sapiens with 7 samples.

Results

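The nuclear lamina is a mesh of lamin filaments under the inner nuclear membrane, held to that membrane and to chromatin by a small set of partner proteins. The genes described here are 10 of these: the lamin genes LMNA, LMNB1 and LMNB2, the lamin B receptor gene LBR, the LEM domain genes EMD, LEMD3 and TMPO, the chromatin linker gene BANF1, and the SUN domain genes SUN1 and SUN2. They were taken by symbol from a table of 59251 gene rows, and each of the 10 symbols matched 1 row. B-type lamins are made in nearly all cells, whereas A-type lamins are known to be low in early embryonic cells and to accumulate as cells differentiate. LBR and A-type lamins are known, from work in the mouse, as tethers that hold heterochromatin at the nuclear edge, and SUN proteins cross the inner membrane and join the lamina to the cytoskeleton.

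The cells were H9, an established line of human embryonic stem cells, grown in RSeT, a medium for the naive pluripotent state. They were transfected with guide RNA plasmids named DJL1 (3 libraries) or belonged to a control named CTRL (4 libraries), and RNA was taken 48 h after transfection. Both groups were kept in 10 nM DZNep, an inhibitor of histone methylation, and 5 nM TSA, an inhibitor of histone deacetylases, and had the CEPT survival cocktail (Chroman 1, Emricasan, polyamine and Trans-ISRIB) for the initial 16 h. By its title, the study concerns LINE1 elements in the distal junctions of ribosomal DNA arrays. Which protein the guides recruit, and which plasmid CTRL cells received, is not given here, and the labels differ on whether cells were sorted before RNA was taken.

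Library totals ran from 34634882 to 37795742 counts in DJL1 and from 62277489 to 76691997 in CTRL, so depth differed with the group. The coefficient of variation between libraries beyond counting error was 13.8% within DJL1 and 3.46% within CTRL. Markers of pluripotent cells fixed for the check were all expressed. POU5F1, which encodes OCT4, was at 5350 ± 270 CPM in DJL1 and 5320 ± 73.1 CPM in CTRL (SD, n = 3 and 4). Of the 10 markers, 8 were called lower in DJL1, beside 43.5% of all genes of at least 10 CPM, as described further on. CPM are counts per 1000000 counts of a library, scaled between libraries by TMM factors. No batch is given, so preparation and group cannot be told apart.

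The end of the lamin coding sequence encodes the end of the protein, on which ICMT and RCE1, described further on, act. Lamin A, lamin B1 and lamin B2 end in a CAAX box, a cysteine and 3 more residues, on which the protein is farnesylated. The last 42 coding bases are shown 5′ to 3′ from GENCODE release 29 transcripts, with the last 4 codons before the stop in capitals.
Lamin A (LMNA, chromosome 1): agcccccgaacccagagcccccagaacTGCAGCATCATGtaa
Lamin B1 (LMNB1, chromosome 5): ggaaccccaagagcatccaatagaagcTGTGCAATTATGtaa
Lamin B2 (LMNB2, chromosome 19): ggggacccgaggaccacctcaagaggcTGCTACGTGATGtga
The coding sequence of lamin A is 1995 bases long. The deposited counts are per gene, so messages of lamin A and of lamin C, the shorter LMNA product, were measured as a single LMNA value.

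The comparison asks which of these genes had other messenger levels in DJL1 than in CTRL. LMNA was 1.88-fold higher in DJL1, SUN2 and LEMD3 were higher by less, EMD and SUN1 were lower with log2 fold changes of -0.39 and -0.37, and LBR, TMPO, LMNB2 and LMNB1 were lower by smaller amounts. BANF1 did not pass the test. In all, 3 members were called higher and 6 lower at an adjusted p under 0.05, by edgeR's quasi-likelihood test adjusted over all 26062 tested genes. Of all tested genes 52.0% were called, 27.0% higher and 25.1% lower. Among the 11123 tested genes that averaged 10 CPM or more, 70.1% were called, 26.6% higher and 43.5% lower. Most genes of this abundance were called, more of them lower than higher, so the members' counts alone do not set them apart. The median log2 fold change was -0.13 over the 10 members, -0.09 over genes of at least 10 CPM and 0.01 over all tested genes. In 8 of 10 members no DJL1 library overlapped a CTRL library, against 53.6% of all tested genes and 70.5% of those of at least 10 CPM. In these bulk samples, fewer cells of a type and less RNA per cell cannot be told apart.

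**Figure D1:**
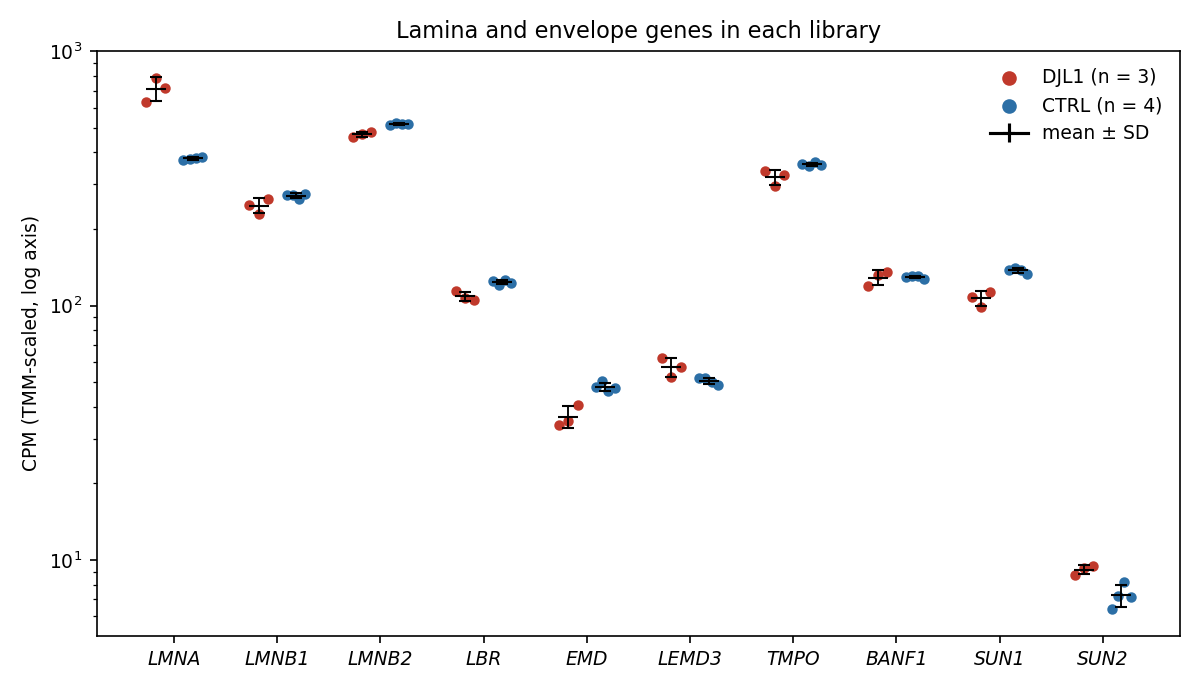
Level of each gene in each library in TMM-scaled CPM (log axis), with DJL1 libraries in red (n = 3), CTRL libraries in blue (n = 4) and black bars for the mean ± SD. LMNA in the 3 DJL1 libraries lay between 633 and 786 CPM, above all 4 CTRL libraries, while the other genes differed by much less.

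LMNA (chromosome 1, 156082573 to 156140089, plus strand, GRCh38 in GENCODE release 29) encodes the A-type lamins. Its level was 633, 786 and 718 CPM in the DJL1 libraries, against 373, 377, 379 and 385 CPM in the CTRL libraries. The lowest DJL1 library thus stood far above the highest CTRL library. The mean was 712 ± 76.4 CPM in DJL1 and 378 ± 5.11 CPM in CTRL (SD, n = 3 and 4). The log2 fold change was 0.91 ± 0.05 (SE, edgeR adjusted p = 3.71e-09), and its size exceeded that of 82.3% of all tested genes. The 3 DJL1 libraries also spread more widely than the 4 CTRL libraries, as they did for 9 of the 10 members. The raw counts of LMNA were 24289, 27573 and 26634 in DJL1 and 23251 to 28645 in CTRL, from shallower DJL1 than CTRL libraries.

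The B-type lamin genes moved little. LMNB2 (chromosome 19, 2427638 to 2456996, minus strand) stood at 459, 470 and 482 CPM in DJL1 and at 510, 521, 517 and 519 CPM in CTRL. The groups did not overlap, and the log2 fold change was -0.14 ± 0.04 (edgeR adjusted p = 0.00485). LMNB2 shares 257 exonic bases on the same strand with TIMM13, a gene for a mitochondrial import chaperone, which had a log2 fold change of -0.20 (edgeR adjusted p = 0.0192) and whose part in the LMNB2 value was not tested. LMNB1 (chromosome 5, 126776623 to 126837020, plus strand) stood at 249, 230 and 263 CPM in DJL1 and at 272, 271, 261 and 275 CPM in CTRL. The highest DJL1 library lay above the lowest CTRL library. The log2 fold change of LMNB1 was -0.13 ± 0.05 (edgeR adjusted p = 0.0289). This call rested on the CTRL libraries kept: it was lost without CTRL replicate 1 (-0.12, adjusted p = 0.0743), without CTRL replicate 2 (-0.13, adjusted p = 0.0557) and without CTRL replicate 4 (-0.11, adjusted p = 0.0878), and over all alternatives the adjusted p ran from 0.0016 to 0.109.

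Set against each other within a library, the lamin genes show the same in a form that no scaling between libraries can alter. The ratio of LMNA to LMNB1, in counts per kilobase of merged exons, was 1.32, 1.78 and 1.42 in the DJL1 libraries, against 0.713, 0.722, 0.755 and 0.729 in the CTRL libraries. Per kilobase, LMNA was thus above LMNB1 in every DJL1 library and below it in every CTRL library. In raw counts LMNA was above LMNB1 in every library of both groups (23251 against 16959 in CTRL replicate 1). Which gene leads in CTRL therefore depends on the lengths used. The difference in the ratio between groups was 1.04 on the log2 scale, with or without division by length. Its p was 0.0571 in an exact permutation test over the 35 ways to assign the libraries to groups (0.0856 adjusted over 3 ratios). The 2-sided p doubles the smaller one-sided p, and 0.0571 is the smallest value it can then take. The ratio of LMNB2 to LMNB1 was 1.28 ± 0.08 in DJL1 and 1.28 ± 0.03 in CTRL (SD, n = 3 and 4; exact permutation p = 0.914, 0.914 adjusted). Of the summed level of the lamin genes per kilobase, LMNA made up 39.7 ± 2.91% in DJL1 and 24.2 ± 0.26% in CTRL. LMNB2 made up 33.8 ± 0.85% in DJL1 and 42.5 ± 0.37% in CTRL, and LMNB1 made up 26.6 ± 2.14% in DJL1 and 33.2 ± 0.52% in CTRL. Because these shares sum to the whole, a higher share of LMNA lowers the others.

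**Figure D2:**
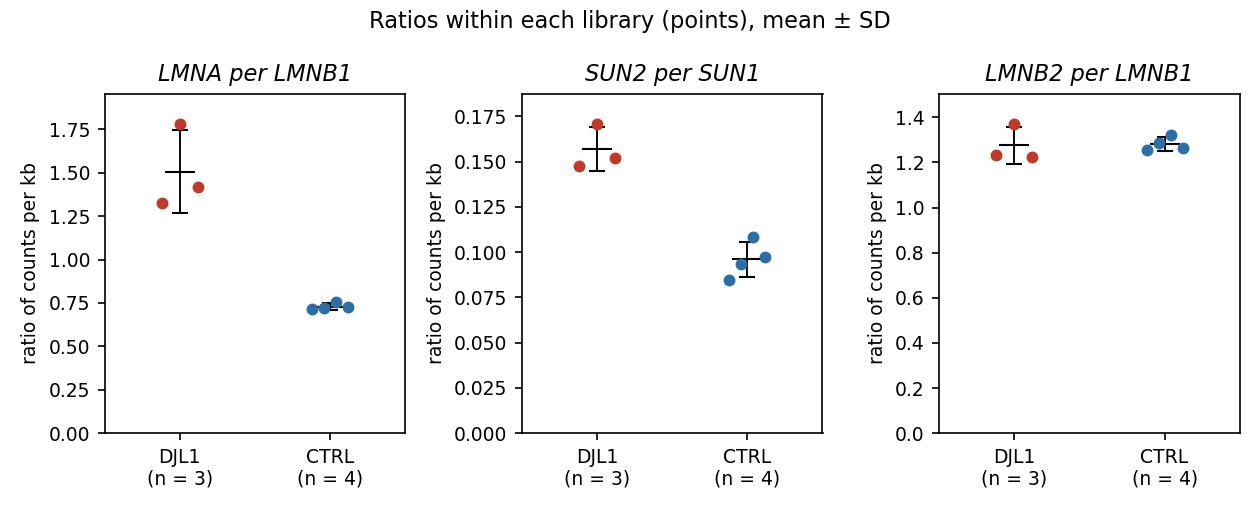
Ratio of counts per kilobase of merged exons between gene pairs, within each library, for DJL1 (red, n = 3) and CTRL (blue, n = 4), with the mean ± SD in black and each axis starting at 0. LMNA per LMNB1 and SUN2 per SUN1 were higher in every DJL1 library than in any CTRL library, and LMNB2 per LMNB1 overlapped.

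LBR (chromosome 1, 225401502 to 225428925, minus strand) encodes a membrane protein that binds B-type lamins and heterochromatin protein 1 and that also acts as a sterol reductase. It stood at 114, 107 and 105 CPM in DJL1, against 125, 121, 126 and 123 CPM in CTRL, with no overlap. The log2 fold change was -0.19 ± 0.04 (edgeR adjusted p = 0.0012). The genes of the pair of heterochromatin tethers named in the opening therefore moved in opposite directions, by amounts of unequal size.

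The LEM domain is a short fold that binds the BANF1 product, and the genes that carry it did not move as a group. EMD (chromosome X, 154379197 to 154381523, plus strand), which encodes emerin, was at 33.8, 35.3 and 40.7 CPM in DJL1 and at 48.0, 50.3, 46.3 and 47.5 CPM in CTRL. The groups did not overlap. Its log2 fold change of -0.39 ± 0.06 was the lowest among the 10 members (edgeR adjusted p = 6.3e-05). TMPO (chromosome 12, 98515512 to 98550379, plus strand) encodes the LAP2 proteins, some of which lie in the membrane and one of which is soluble and binds A-type lamins inside the nucleus. It was at 339, 294 and 325 CPM in DJL1 and at 360, 355, 365 and 358 CPM in CTRL, a log2 fold change of -0.17 ± 0.05 with no overlap (edgeR adjusted p = 0.00484). TMPO-AS1, the antisense gene that shares 713 exonic bases with it, had a log2 fold change of -0.62. The strand setting of the counting is not given. The antisense counts came to 2.23% of the TMPO counts, and the part of TMPO-AS1 in the TMPO value was not tested.

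LEMD3 (chromosome 12, 65169571 to 65248327, plus strand) encodes MAN1, an inner membrane protein that also binds SMAD proteins and restrains TGF-beta and BMP signalling. It was at 62.0, 52.5 and 57.5 CPM in DJL1, against 51.7, 51.7, 50.2 and 48.6 CPM in CTRL. The groups did not overlap, but DJL1 replicate 2 stood barely above the highest CTRL library. The log2 fold change was 0.18 ± 0.05 (edgeR adjusted p = 0.0105). Without DJL1 replicate 1 it was 0.11 and no longer passed (adjusted p = 0.0765), and over all alternatives the adjusted p ran from 0.00081 to 0.0765.

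BANF1 (chromosome 11, 66002079 to 66004149, plus strand) encodes BAF, a small protein that bridges DNA and LEM domain proteins and gathers chromosomes into a single nucleus after mitosis. It was at 119, 132 and 135 CPM in DJL1 and at 129, 131, 130 and 127 CPM in CTRL, with overlapping groups. The log2 fold change was -0.01 ± 0.05 (edgeR adjusted p = 0.91). Reads of BANF1 can be shared with processed copies of the gene: the 5 numbered copies in the table held a summed count of 21.5% of that of BANF1, nearly all of it in BANF1P3. With these copies added, the level was 154.5 ± 11.95 CPM in DJL1 and 158 ± 1.91 CPM in CTRL (SD, n = 3 and 4). BANF1 also shares 98 exonic bases on the opposite strand with EIF1AD, which had a log2 fold change of -0.15 (edgeR adjusted p = 0.0236). The part of EIF1AD in the BANF1 value was not tested.

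The SUN genes moved in opposite directions. SUN1 (chromosome 7, 816615 to 896435, plus strand) was at 108, 99.2 and 113 CPM in DJL1, against 138, 140, 138 and 134 CPM in CTRL. The groups were well apart, and the log2 fold change was -0.37 ± 0.05 (edgeR adjusted p = 6.85e-06). SUN2 (chromosome 22, 38734725 to 38794143, minus strand) was at 8.73, 9.29 and 9.46 CPM in DJL1, against 6.41, 7.23, 8.23 and 7.16 CPM in CTRL. The groups did not overlap, and the log2 fold change was 0.34 ± 0.10 (edgeR adjusted p = 0.0106). The ratio of SUN2 to SUN1 per kilobase was 0.148, 0.171 and 0.152 in DJL1, against 0.0847, 0.0937, 0.108 and 0.0976 in CTRL. The groups did not overlap in this ratio, and the difference of 0.71 on the log2 scale had the smallest p this doubled exact permutation test can give (0.0571, 0.0856 adjusted over 3 ratios). SUN2 remained the scarcer of the pair in every library.

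Neighbouring genes also limit what the SUN values mean. In GENCODE release 29, SUN1 shares 1842 exonic bases on the same strand with GET4, a gene for a factor that delivers tail-anchored membrane proteins. GET4 was at 136, 144 and 143 CPM in DJL1 and at 106, 107, 111 and 109 CPM in CTRL, a log2 fold change of 0.38 ± 0.04 (edgeR adjusted p = 7.56e-07). The sum of SUN1 and GET4 was 248 ± 7.5 CPM in DJL1 and 246 ± 2.9 CPM in CTRL (SD, n = 3 and 4). How the reads in the shared exons were assigned is not given, and whether they account for part of either difference was not tested. SUN2 shares 680 exonic bases on the opposite strand with GTPBP1, which stood at 109 ± 3.98 CPM in DJL1 and 117 ± 1.19 CPM in CTRL, and 76 bases on its own strand with DNAL4. Reads in the bases shared with GTPBP1 cannot be told apart without strand, and those in the bases shared with DNAL4 not even with it.

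**Figure D3:**
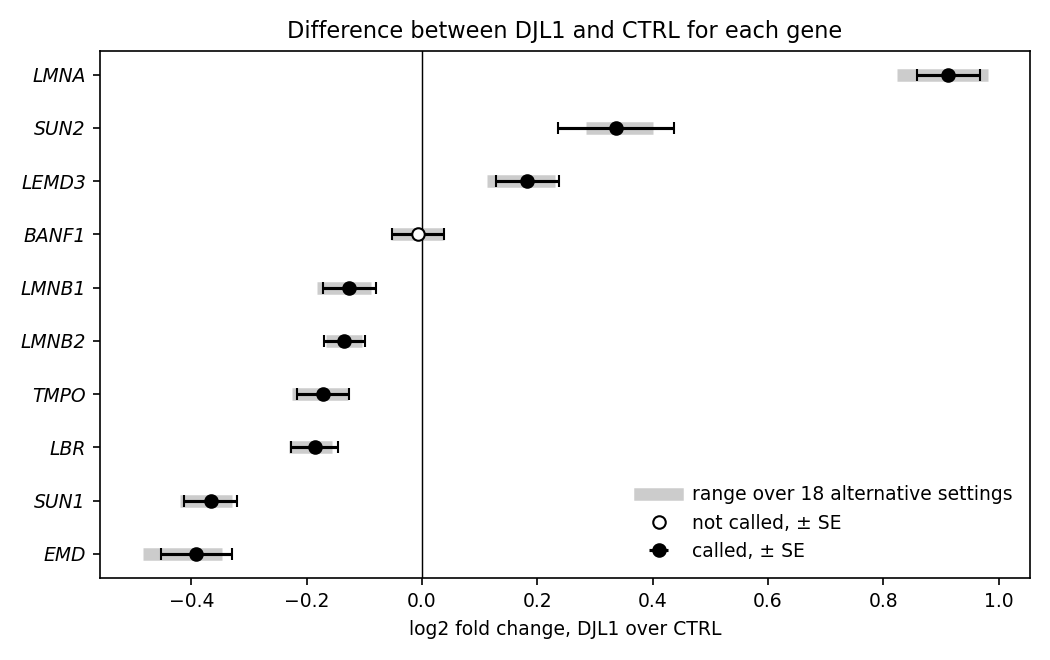
Log2 fold change of DJL1 over CTRL for each gene (points, filled where called, with SE bars) and its range over 18 alternative settings (grey bars). LMNA lies near 0.91 and every other gene between -0.39 and 0.34, and BANF1 alone has a range that crosses 0.

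Per kilobase of merged exons, the order of levels changed at the top of the list. In DJL1, LMNA led with 102 ± 10.9 CPM per kilobase, followed by LMNB2 (86.6 ± 2.11), BANF1 (78.3 ± 5.28), LMNB1 (68.1 ± 4.62), TMPO (37.1 ± 2.65), LBR (20.7 ± 0.87), EMD (18.1 ± 1.80), LEMD3 (10.3 ± 0.86), SUN1 (9.03 ± 0.60) and SUN2 (1.41 ± 0.06). Neighbours whose library values overlapped in DJL1 were BANF1 and LMNB1, LBR and EMD, and LEMD3 and SUN1. In CTRL the order was LMNB2 (95.1 ± 0.88), BANF1 (78.7 ± 0.95), LMNB1 (74.3 ± 1.61), LMNA (54.2 ± 0.73), TMPO (41.8 ± 0.53), EMD (23.8 ± 0.83), LBR (23.5 ± 0.42), SUN1 (11.6 ± 0.25), LEMD3 (9.09 ± 0.27) and SUN2 (1.12 ± 0.11), where only EMD and LBR overlapped. LMNA was thus 1st in DJL1 and 4th in CTRL. Merged exons of all annotated transcripts are longer than most messages, so these levels are approximate between genes. The summed CPM of the 10 genes was 2196 ± 64.4 in DJL1 and 2021 ± 5.25 in CTRL, and without LMNA it was 1484 ± 51.4 in DJL1 and 1643 ± 4.56 in CTRL.

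**Figure D4:**
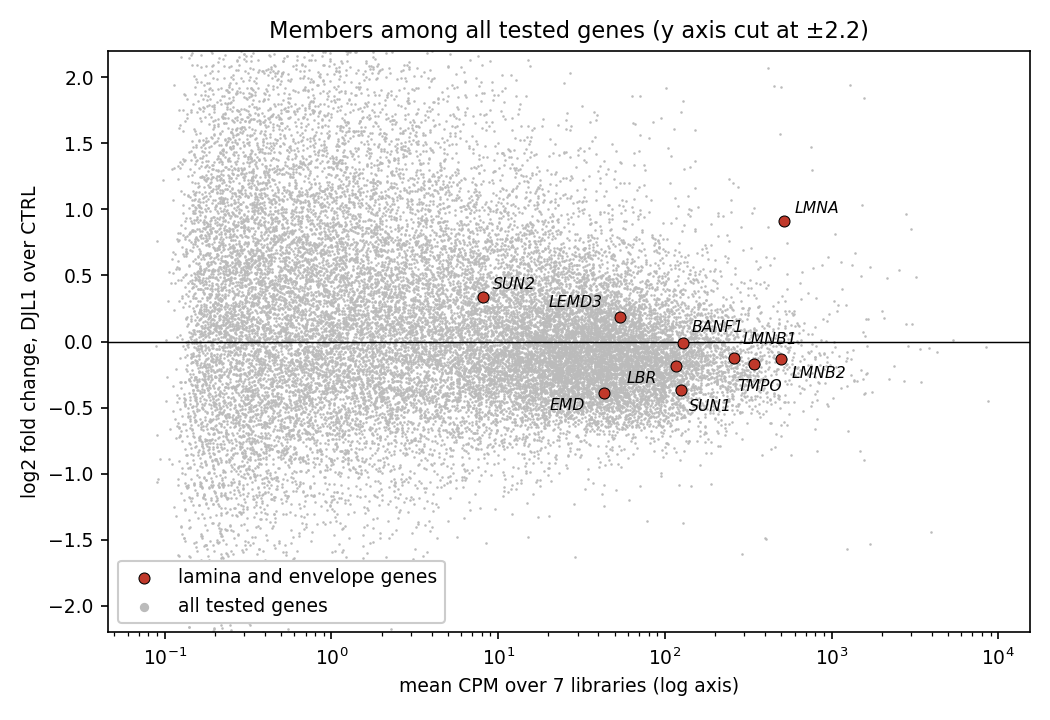
Log2 fold change of DJL1 over CTRL against the mean CPM over 7 libraries (log axis) for all 26062 tested genes (grey) and the 10 lamina and envelope genes (red), with 552 genes beyond the vertical axis. LMNA, at 0.91, lies above the dense band of points, and the other members lie within it.

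The authors' deposited table of this comparison gives the same directions for the 9 members called here. In the authors' deposited table the log2 fold changes are 0.92 for LMNA, 0.36 for SUN2, 0.20 for LEMD3, -0.11 for LMNB1, -0.12 for LMNB2, -0.16 for TMPO, -0.17 for LBR, -0.35 for SUN1 and -0.38 for EMD. For BANF1 the authors' deposited table gives 0.01 with an adjusted p of 0.902. Of the 20199 rows of the authors' deposited table, 62.5% have an adjusted p under 0.05, and 3 members rise and 6 fall by that measure.

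Among genes that averaged 10 CPM or more, those whose log2 CPM over the 7 libraries correlated best with LMNA were TAGLN2, which encodes an actin-binding protein, PIM1, a kinase gene, and HES2, a gene of the HES transcription factor family (Pearson r of 0.9998, 0.9996 and 0.9991). For LMNB1 they were MTM1, a phosphoinositide phosphatase gene, NECAB3 and NONO, a gene for a nuclear RNA-binding protein (r of 0.997, 0.993 and 0.993). These are descriptions over 7 libraries that share the same 2 groups and depth difference, and 2090 of 11122 genes had an r above 0.9 with LMNA.

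Of 5 tested lamin maturation genes 4 were called lower, beside 43.5% of all genes of at least 10 CPM, with a median log2 fold change of -0.28. NARF, which encodes a prelamin A-binding protein and is named after its values were seen, did not pass. ICMT, which methylates the farnesylated cysteine of the CAAX box shown above, was at 136 ± 7.62 CPM in DJL1 and 177 ± 3.31 CPM in CTRL (SD, n = 3 and 4; log2 fold change -0.38). ZMPSTE24, the protease that cuts prelamin A, was at 63.6 ± 4.94 CPM in DJL1 and 82.4 ± 1.56 CPM in CTRL (-0.37), and RCE1, which removes the residues after that cysteine, was at 30.9 ± 1.76 CPM in DJL1 and 37.6 ± 0.82 CPM in CTRL (-0.28). The higher LMNA and the lower ZMPSTE24 were found in the same libraries, and a link between them was not tested. The farnesyltransferase beta subunit gene FNTB, also named after its values were seen, is listed at 0 in all libraries and shares 42.1% of its exonic bases with the annotated readthrough gene CHURC1-FNTB, so its value is uncertain.

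The LINC complex and torsin list, which holds the partners of the SUN proteins, was split. Of 12 tested genes 5 were called higher and 3 lower, beside 27.0% higher and 25.1% lower of all tested genes. The median of the list was 0.10. SYNE1, which encodes the nuclear envelope spectrin nesprin-1, was at 13.8 ± 2.37 CPM in DJL1 and 4.55 ± 0.24 CPM in CTRL (SD, n = 3 and 4), a log2 fold change of 1.60 ± 0.11 (edgeR adjusted p = 1.58e-08). SYNE3, which encodes nesprin-3, a linker to plectin, was at 3.24 ± 0.29 CPM in DJL1 and 1.36 ± 0.05 CPM in CTRL (1.25 ± 0.16). The most abundant nesprin gene, SYNE2, named after its values were seen, was at 101 ± 6.39 CPM in DJL1 and 95.5 ± 1.52 CPM in CTRL and did not pass (log2 fold change 0.08, edgeR adjusted p = 0.155). The other genes called higher were KASH5 and IRAG2, both under 1 CPM in the mean of either group, and TMEM43, and the other lower ones were SYNE4 and TOR1A, all named after their values were seen. TOR1AIP2, which encodes LULL1, an activator of the torsin ATPases, was at 52.1 ± 0.93 CPM in DJL1 and 64.5 ± 1.21 CPM in CTRL (-0.31).

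Of 7 tested partners of BAF and other LEM domain genes 4 were called lower and 1 higher, beside 43.5% and 26.6% of all genes of at least 10 CPM, with a median of -0.24. ANKLE1, a LEM domain nuclease gene, had a log2 fold change of -0.50 and ANKLE2, which brings BAF to its phosphatase after mitosis, of -0.24. The kinase gene VRK2 had -0.38, and its relative VRK1, a BAF kinase named here beyond the rule, -0.26. The single higher gene, LEMD1, named after its values were seen, was scarce, at 0.41 ± 0.27 CPM in DJL1 and 0.14 ± 0.03 CPM in CTRL, and its groups overlapped. Of 13 other inner membrane and associated genes 7 were called lower and 2 higher, with a median of -0.33. Among them the nuclear transport factor gene NUTF2 had a log2 fold change of -0.55, NRM, which encodes nurim, of -0.43 and CTDNEP1, a phosphatase gene that controls lipin at the envelope, of -0.40. The 2 higher genes were PRR14, whose product ties heterochromatin to the lamina (0.54), and CNEP1R1, the partner of CTDNEP1 (0.23), both named after their values were seen.

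Genes of the ESCRT-III machinery that reseals the envelope after mitosis went both ways, with 4 of 11 called higher and 5 lower. Their median was -0.10. Of all genes of at least 10 CPM, 26.6% were called higher and 43.5% lower, so the ESCRT-III counts alone do not set this list apart. CHMP4B, a filament subunit gene, was at 120 ± 5.08 CPM in DJL1 and 83.4 ± 0.73 CPM in CTRL (SD, n = 3 and 4; log2 fold change 0.52), whereas IST1 had -0.21 and the microtubule-severing gene SPAST -0.31. CHMP7, which starts the assembly by binding LEMD2 and is named here beyond the rule, had -0.27. Of 10 repressor genes linked to the lamina 7 were called lower, beside the same 43.5%, and 3 did not pass. The median of these repressor genes was -0.32. CBX5 and CBX3, which encode forms of heterochromatin protein 1, had -0.40 and -0.38 on the log2 scale, and HDAC3, a deacetylase that binds emerin, had -0.34.

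Over the 58 tested genes of the 6 lists together, 12 were called higher and 30 lower, with a median of -0.14. All genes of at least 10 CPM were also called lower more often than higher (43.5% and 26.6%), so these counts alone do not set the lists apart. Without CTRL replicate 2, 7 of the list genes were called higher.

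**Figure D5:**
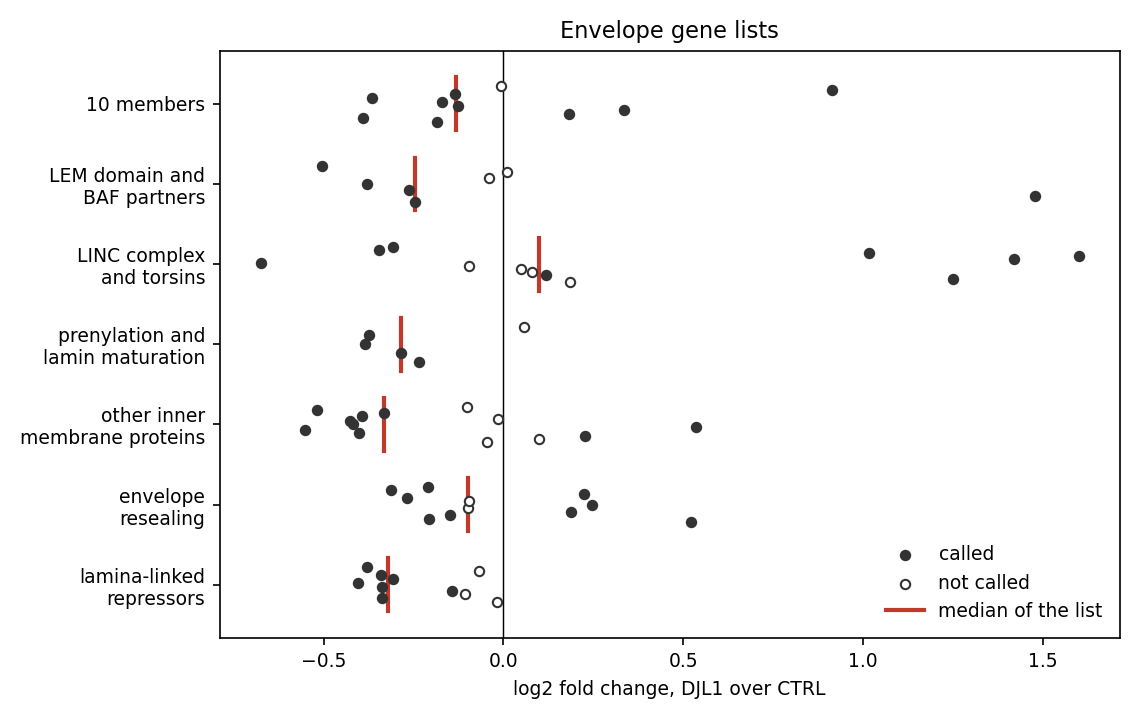
Log2 fold change of DJL1 over CTRL for the 10 members and for each tested gene of 6 envelope lists (points, filled where called at an edgeR adjusted p under 0.05), with the median of each list as a red bar. The medians lie between -0.33 and 0.10, and the points furthest right are SYNE1 at 1.60 and other LINC complex genes, LEMD1 and LMNA.

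Markers of other cell types moved in the same libraries as LMNA, and their part in its higher level was not tested. The counts of markers called higher are set beside 27.0% of all tested genes. Of 12 tested fibroblast or feeder markers of 15 listed, 10 were called higher and 2 did not pass, and the list's summed level was 1414 to 1514 CPM in DJL1 and 966 to 997 CPM in CTRL. The most abundant were COL1A1, at 484 ± 49.8 CPM in DJL1 and 240.5 ± 5.41 CPM in CTRL, and FN1, at 291 ± 6.14 CPM in DJL1 and 186 ± 4.84 CPM in CTRL (SD, n = 3 and 4). The fibroblast markers that did not pass were POSTN, at a log2 fold change of -0.33 with no overlap between groups, and PDGFRA, at -0.05. POSTN and PDGFRA were named after their values were seen. The 3 fibroblast markers too scarce to test, named after their values were seen, averaged higher in DJL1. DCN was at 0.057 CPM in DJL1 and 0.011 CPM in CTRL, and DJL1 replicate 2 alone of the DJL1 libraries held DCN counts. LUM was at 0.12 CPM in DJL1 and 0.023 CPM in CTRL, and FAP at 0.36 CPM in DJL1 and 0.047 CPM in CTRL. The groups overlapped for DCN and LUM but not for FAP. All 8 tested of 10 trophectoderm markers were called higher (summed 289 to 306 CPM in DJL1 and 232 to 238 CPM in CTRL), led by KRT18 with a log2 fold change of 0.20 and GATA2 with 1.90. The trophectoderm markers not tested, CGA and VGLL1, were named after their values were seen. CGA was at 0.065 CPM in DJL1 and 0.0099 CPM in CTRL, and VGLL1 had no count in DJL1 and 0.0066 CPM in CTRL. Of 6 endoderm markers 5 were called higher (33.8 to 42.0 CPM in DJL1 and 14.3 to 16.4 CPM in CTRL), with CXCR4 at 1.01 and GATA6 at 1.21. AFP, named after its values were seen, was at -0.21 and did not pass. Of 5 tested mesoderm markers of 7 listed, 3 were called higher (20.6 to 23.6 CPM in DJL1 and 12.9 to 14.3 CPM in CTRL). FOXF1 was at 2.66, and MIXL1 at 0.11 and TBX6 at -0.35 did not pass. The mesoderm markers not tested were HAND2, at 0.37 CPM in DJL1 and 0.057 CPM in CTRL, and MESP1, at 0.066 CPM in DJL1 and 0.11 CPM in CTRL. TBX6, HAND2 and MESP1 were named after their values were seen. Of 6 neuroectoderm markers 5 were called higher (662 to 724 CPM in DJL1 and 621 to 635 CPM in CTRL), with NES at 0.13 and OTX2 at -0.05, which did not pass.

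Of all genes of at least 10 CPM, 43.5% were called lower. Markers of pluripotent cells fell in 8 of 10 cases and did not pass in the others, with DNMT3B at a log2 fold change of -0.83, and summed to 9294 to 10380 CPM in DJL1 and 11540 to 11780 CPM in CTRL. Markers of cycling cells fell in 10 of 12 cases and rose in 1, PCNA, named after its values were seen, and summed to 1562 to 1707 CPM in DJL1 and 2076 to 2103 CPM in CTRL. TOP2A had a log2 fold change of -0.18 and MCM2 of -0.27. The lower levels of LMNB1, LMNB2, TMPO and LBR were found in these same libraries, and the part of the cell cycle in them was not tested.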

How the data were processed

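The authors deposited raw counts per gene symbol with 1 column for each of the 7 libraries, per the file headers, and these counts were used unchanged. The authors' deposited table of DJL1 against CTRL gives, per the file headers, log2 fold changes with p-values, raw and adjusted, from a model that is not given. A deposited table of log values was not used, since its transform is not given. HISAT2 2.2.1, Subread 1.5.0 with featureCounts, and Trim Galore 0.4.0 are listed in the submitters' processing notes, with builds GRCh38 and hg38. Libraries were made with a directional poly(A) kit, per the labels' protocols. Neither the strand setting nor the handling of reads that match several genes is given.

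Titles gave the groups. Whether replicates are separate cultures is not stated, so p-values reflect only the spread among these libraries, which may be technical. Genes were kept by edgeR's filterByExpr (minimum count 10, minimum total 15), which left 26062 genes with 99.9% of the counts. DJL1 and CTRL were compared with TMM factors and the robust quasi-likelihood test of edgeR 4.0.16 (R 4.3.3), 2-sided, with Benjamini-Hochberg adjustment over all tested genes and a threshold of 0.05. Standard errors are the absolute log2 fold change over the root of F. Log2 CPM used a prior count of 2. Positions, merged exon lengths, overlaps and transcripts came from GENCODE release 29. Ratios were tested by exact permutation of libraries, with the smaller one-sided p doubled. The fit was tested on simulated counts.

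The members, the 6 envelope lists and the 7 marker lists were chosen with earlier results of these data known. Named genes are all members, the 3 of each envelope list with the smallest adjusted p, the 2 of each marker list with the highest mean in DJL1, and the 3 genes most correlated with LMNA and with LMNB1. Others are marked in the text as named beyond this rule or after their values were seen, except genes that share bases with a member. Alternatives were a filter of 1 CPM in 3 or more libraries or none, scaling by library size only, by upper quartiles or by relative log expression, DESeq2 1.42.0, limma-voom (limma 3.58.1) with a shared variance and with one per group, counts thinned to the smallest library, an adjusted p under 0.01, each library left out, and the replicate number as a block.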

Additional observations from a re-analysis of the deposited data

How the results depend on the processing

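Over 18 alternatives the log2 fold change ran from 0.82 to 0.98 for LMNA, from -0.48 to -0.35 for EMD, from -0.42 to -0.33 for SUN1, from -0.23 to -0.16 for LBR and from -0.23 to -0.13 for TMPO, and these 5 genes stayed past the threshold in each. BANF1 was called in none, with values from -0.05 to 0.04. At an adjusted p under 0.01, 1 member (LMNA) was called higher and 5 lower, and 7 genes of the 6 envelope lists were called higher. LMNB1 also missed the threshold with the stricter filter (-0.10, adjusted p = 0.0611). The edgeR fit shares its spread per gene between the groups, although DJL1 libraries varied more. With limma-voom and a variance for each group, 3 members were called higher and 6 lower, with SUN2 at an adjusted p of 0.0309. In that setting 9 envelope list genes were called higher, and 6434 of all genes were called higher and 5648 lower. Leaving out each library in turn gave 7 to 11 envelope list genes called higher, 2 to 3 members called higher and 5 to 6 lower, and ratio differences on the log2 scale of 0.91 to 1.12 for LMNA to LMNB1 and 0.65 to 0.77 for SUN2 to SUN1, and -0.06 to 0.02 for LMNB2 to LMNB1, whose sign was not stable. The median of all tested genes stayed between -0.03 and 0.03 under every scaling and filter tried. Same-numbered libraries did not deviate together (r of 0.04, -0.13 and -0.21 for numbers 1, 2 and 3), so the numbers are not taken to pair them. With the replicate block 7 envelope list genes were called higher, LMNB1 (-0.12, adjusted p = 0.109), LMNB2 (-0.13, adjusted p = 0.0542) and LEMD3 (0.16, adjusted p = 0.0529) missed the threshold, LMNA, EMD, SUN1, LBR, TMPO and SUN2 kept it, and the ratio differences were 1.03, 0.72 and -0.01. The doubled permutation p of the ratios cannot go under 0.0571 with these libraries, and SUN2, with 326 to 550 counts a library, is the least precise member.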
